A study of Mus musculus with 46 samples.

Results

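Lysosomal hydrolases, the proteins that activate or transport them, membrane proteins of the lysosome, subunits of its proton pump and the transcription factors of lysosomal genes were followed as a set of 37 genes in RNA-seq of mouse microglia. The members were chosen by gene symbol from a list set for this purpose, and all 37 had a row in each of 4 tables of normalised counts, among 19762 genes in the adult table and 24421 genes in each of the other 3. Dicer is the RNase that cuts precursor microRNAs into their mature form, and the series compared microglia with and without it, at rest and after injection of lipopolysaccharide (LPS), the outer-membrane glycolipid of Gram-negative bacteria that activates innate immune cells. There were 46 libraries of freshly sorted microglia.

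The adult table held 4 control libraries (Cx3cr1CreER:Dicer+/-) and 3 Dicer-deficient libraries (Cx3cr1CreER:Dicerfl/-) from brains of untreated mice of 10 to 12 weeks. A whole-brain table held 3 control and 3 Dicer-deficient libraries at steady state and 4 of each taken 6 hours after 1 mg/kg LPS given intraperitoneally, with the same genotypes and age. The hippocampal table had the same 4 conditions with 2 control and 3 Dicer-deficient libraries at steady state and 2 of each after LPS. The labels of the whole-brain steady-state libraries also name PBS. The developmental table held Dicerfl/fl controls from embryonic day 14 (E14, 4 libraries), from newborns (P0, 5 libraries) and from adults of 6 to 8 weeks (5 libraries), together with 2 newborn Dicer-deficient libraries (Cx3cr1Cre:Dicerfl/fl). Cre or the hormone-dependent CreER was driven by the promoter of Cx3cr1, which other mononuclear phagocytes also use. Controls of the 10 to 12 week groups carried the CreER and 1 intact Dicer allele, whereas the Dicerfl/fl controls are labelled without Cre. The series text gives both adult groups the control genotype, so their genotypes here rest on the sample labels, and no agent that activates CreER is named in the sources used here. All groups were sorted as CD45intCD11b+F4/80+Ly6C-Ly6G- cells except E14, sorted as CD45+CD11b+F4/80hiLy6C-Ly6G-. The labels do not say whether libraries of a group came from separate animals, so the p-values here reflect only the scatter among libraries, which may be technical.

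The lysosome is the acidic compartment in which cells break down proteins, lipids, glycoproteins and glycosaminoglycans, and in microglia it receives what these cells take up by phagocytosis. Soluble hydrolases work at low pH, which the V-ATPase maintains by pumping protons across a membrane protected by heavily glycosylated proteins such as Lamp1 and Lamp2. Many lysosomal genes carry the CLEAR element, a palindromic E-box bound by the transcription factors Tfeb and Tfe3 of the MiT family.

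Promoters were read from RefSeq (GRCm38.p6) as windows from 250 bases before to 50 bases after an annotated start, and 32 of the 37 members had an entry. Asah1, Atp6v0d2, Atp6v1b2, Galns and Npc1 had none. The palindrome CACGTG, searched on both strands, was present in the window of 10 of 32 members (31.2%) and of 8.09% of all 27025 genes with a window. The longer palindrome TCACGTGA, which contains CACGTG, was present in 4 of 32 members (12.5%) and in 1.12% of all genes. The 6 stretches here show the members with the longer form, the member with most copies, and Sgsh, one of the members that changed most. Capitals mark the palindromes, each sequence is written 5′ to 3′ on the gene's strand, and a match describes the sequence alone.

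Mcoln1, chr8:3500418-3500509, plus strand: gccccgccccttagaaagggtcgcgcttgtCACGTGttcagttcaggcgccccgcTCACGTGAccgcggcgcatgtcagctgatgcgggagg
Gla, chrX:134601164-134601255, minus strand: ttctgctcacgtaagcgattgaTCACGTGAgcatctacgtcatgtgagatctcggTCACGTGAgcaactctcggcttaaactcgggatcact
Atp6v1a, chr16:44139355-44139420, minus strand: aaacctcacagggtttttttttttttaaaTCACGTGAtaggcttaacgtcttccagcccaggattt
Atp6v0d1, chr8:105566061-105566097, minus strand: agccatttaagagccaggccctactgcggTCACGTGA
Lamp1, chr8:13159070-13159160, plus strand: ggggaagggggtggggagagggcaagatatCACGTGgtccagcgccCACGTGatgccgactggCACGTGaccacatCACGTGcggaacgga
Sgsh, chr11:119355511-119355569, minus strand: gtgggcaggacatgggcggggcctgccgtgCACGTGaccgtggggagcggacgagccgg

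Lamp1 carried 4 copies, beginning 61, 45, 28 and 15 bases before the start. Mcoln1 carried 2, at 71 and 45 bases, and Gla 2, at 227 and 194 bases. Single copies lay 131 bases before the start in Atp6v1a, 3 in Atp6v0d1 and 29 in Sgsh. The others were Naglu (73 bases), Glb1 (48), Gaa (140) and Lgmn (49).

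The libraries held 898451 to 4573063 reads, of which 25453 to 107648 fell in members. Values are the authors' normalised counts, comparable within a table and not between tables. Fold changes are differences of log2(value + 1) with their standard error, tested with limma across all genes, and a member rose or fell only where the Benjamini-Hochberg adjusted p over all genes was under 0.05. All 11 microglia markers were detected in every group, including Cx3cr1, P2ry12 and Tmem119. Dicer1 itself ranged from 97.6 to 153 in the adult controls and from 117 to 151 in the adult Dicer-deficient libraries, and its ranges overlapped between genotypes in every comparison of genotypes. Its mRNA level checks the deletion only if the reads fall in the deleted part, which was not analysed here. One whole-brain control after LPS, library 33, stood apart from the other 3 (P2ry12, a resting microglia marker, 6074 against 974 to 1476). The same library had the highest sum of monocyte and neutrophil markers of its group (3800 against 137 to 595).

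Members together took a smaller share of the normalised counts after LPS than at steady state. In whole brain the share was 2.65% to 2.72% in the 3 steady-state controls and 1.70% to 2.43% in the 4 controls after LPS, where the highest value belonged to library 33. In Dicer-deficient microglia it was 2.67% to 2.98% at steady state and 1.64% to 1.81% after LPS. The hippocampal share went from 2.39% and 2.56% to 1.59% and 1.83% in controls, and from 2.38% to 2.53% down to 1.40% and 1.60% in Dicer-deficient microglia. No steady-state library overlapped an LPS library in either table. Across development the share was 2.20% to 2.54% at E14, 2.60% to 3.21% at P0 and 2.49% to 2.74% in adults. The 2 newborn Dicer-deficient libraries had 3.56% and 3.24%, above all 5 P0 controls. In bulk samples, fewer cells of a type and less RNA per cell cannot be told apart.

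**Figure D1:**
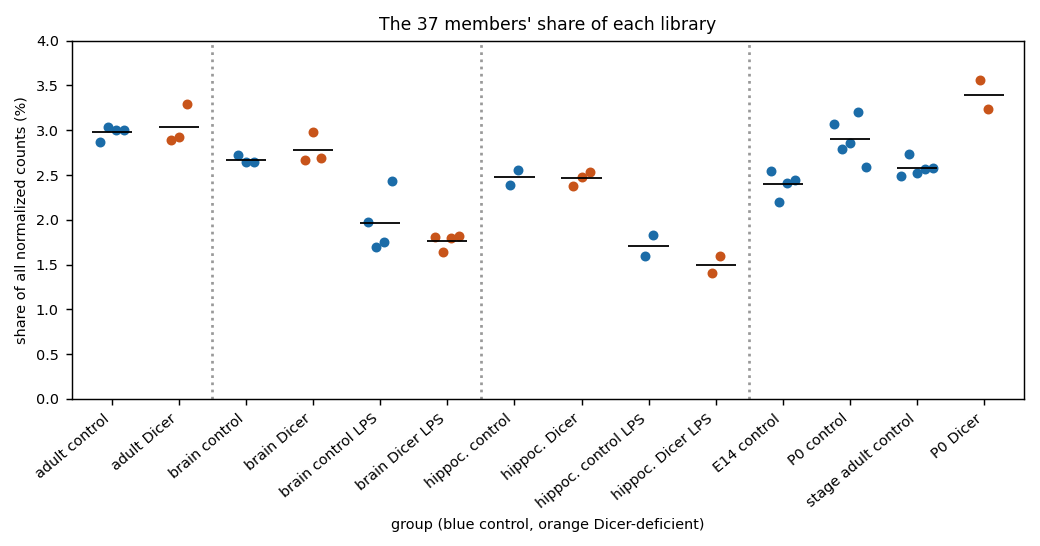
Share of all normalised counts taken by the 37 members (y axis, percent) in each library, by group; points are libraries, bars are group means, blue is control and orange Dicer-deficient. The 8 whole-brain libraries after LPS lie between 1.64% and 2.43%, below the 6 at steady state.

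Loss of Dicer in adult microglia moved 4 of the 36 members tested, 2 up and 2 down, against 3.15% of all genes called higher and 2% called lower. Their median log2 fold change was -0.07, beside 0.05 over all genes tested. Atp6v0d2, a V-ATPase subunit best known from osteoclasts, was at 0 in all 7 libraries and was not tested.

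Psap, the precursor of the saposins that help hydrolases reach sphingolipids, was 14436, 14859, 15539 and 16750.1 in the 4 controls and 7646, 8835 and 9927 in the 3 Dicer-deficient libraries. No library overlapped, and Psap fell (log2 fold change -0.81 ± 0.16, limma adjusted p = 0.00539). Sgsh, the sulfamidase that removes sulfate from heparan sulfate, was 204, 262, 267 and 282 in controls and 92.7, 127 and 127 without Dicer. It also fell with no overlap (log2 fold change -1.13 ± 0.25, limma adjusted p = 0.0121).

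Man2b1, the lysosomal alpha-mannosidase that trims glycoprotein glycans, was 431, 457, 478 and 606 in controls against 695, 889.96 and 1016 in Dicer-deficient microglia. The groups did not overlap and it rose (0.81 ± 0.18, limma adjusted p = 0.0141). Glb1, the beta-galactosidase of gangliosides and keratan sulfate, was 277, 403, 408 and 416 against 565, 621 and 687. This was also a rise without overlap (0.74 ± 0.19, limma adjusted p = 0.0295). The falls of Psap and Sgsh held under every alternative run. Without Dicer-deficient library 1 only these 2 of the 4 members were called: Man2b1 then had a limma adjusted p of 0.090, and the Glb1 call was lost when any 1 library except control 1 was left out (limma adjusted p 0.0502 to 0.0857).

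Several members that missed the threshold had groups that did not overlap. Counting the 4 called, groups of the 36 members lay apart upward for 7 and downward for 6. Of all genes tested, 9.79% and 6.68% did so. Laptm5, a membrane protein of late endosomes and lysosomes in blood cells, was 35635 to 40333 in controls and 50962 to 67118 without Dicer (log2 fold change 0.61 ± 0.20, limma adjusted p = 0.0949). With edgeR on reads recovered from the table, it was called higher. Npc1, the cholesterol exporter of the lysosomal membrane, was 682 to 758 against 881 to 1062 (0.47 ± 0.15, limma adjusted p = 0.0829). Naglu, an exoglycosidase of heparan sulfate, was 621 to 678 against 734 to 1096 (0.53 ± 0.17, limma adjusted p = 0.0772). The membrane proteins Lamp1 and Lamp2 had log2 fold changes of -0.35 ± 0.14 and -0.57 ± 0.18. Grn, which encodes progranulin, had -0.40 ± 0.17, and none of these was called. Genes induced by cell dissociation were lower in the adult Dicer-deficient libraries (summed 33090 to 37048 against 48516 to 70127), and 8 of the 16 fell; their part in these results was not tested.

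**Figure D2:**
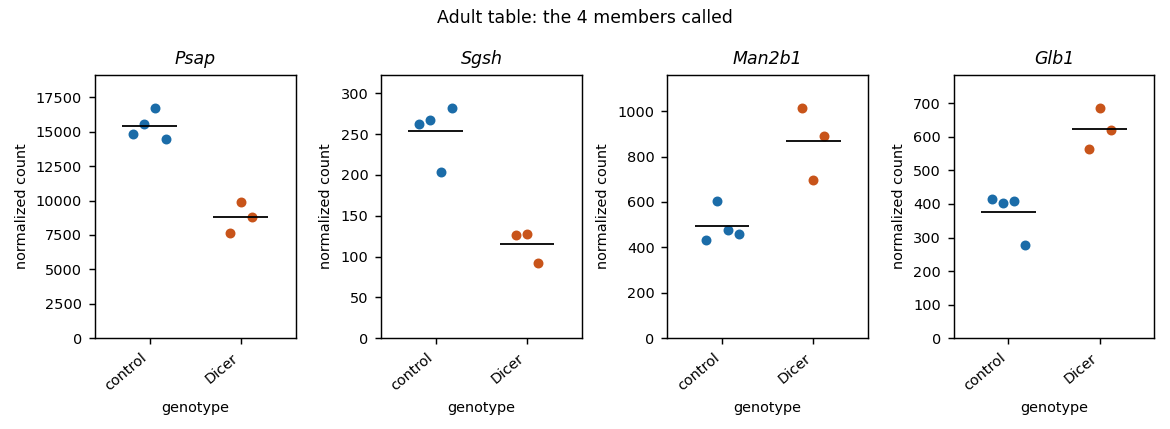
Normalised counts (y axis, linear from 0) of the 4 members called in the adult table, in 4 control (blue) and 3 Dicer-deficient (orange) libraries; bars are group means. Psap and Sgsh lie lower and Man2b1 and Glb1 higher without Dicer, with no library overlapping.

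In whole-brain microglia at steady state, loss of Dicer raised 2 of 36 members and lowered none. Of all genes tested, 0.797% were called higher and 1.38% lower, and the median was 0.03 for members and -0.10 for all genes. For the lower direction 0 members passed limma, 6 members in either direction had an unadjusted p under 0.05, and edgeR also called none lower. Psap was called lower without Dicer-deficient library 12. In the same comparison 4 of 16 dissociation genes were called lower and 2 of 6 neuron markers (Snap25 and Nrgn) higher; their part in the members' values was not tested.

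Man2b1 was 3070.4, 3246 and 3549 in the 3 controls and 5452, 6160.5 and 11958 in the 3 Dicer-deficient libraries. All Dicer-deficient values lay above all controls, with library 11b the highest (log2 fold change 1.17 ± 0.29, limma adjusted p = 0.0458). Gusb, the beta-glucuronidase of glycosaminoglycans, was 767, 773 and 855 in controls against 1338, 1341 and 1474. It rose as well, again without overlap (0.79 ± 0.16, limma adjusted p = 0.0161). Both calls were lost without Dicer-deficient library 5, control 7 or control 9 (limma adjusted p 0.075, 0.119 and 0.167 for Man2b1, and 0.0502, 0.0665 and 0.0866 for Gusb). The Man2b1 call was also lost without library 11b (log2 fold change 0.82, limma adjusted p 0.147) or control 8 (limma adjusted p 0.121).

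Psap, which fell in the adult table, was 2892, 3324 and 3674 in whole-brain controls and 708, 1698 and 2105 in Dicer-deficient microglia. Every Dicer-deficient value lay below every control, but the change was not called (log2 fold change -1.27 ± 0.36, limma adjusted p = 0.0746). Library 11b was the lowest of the 3. Sgsh was 81.3, 81.6 and 162 in controls against 45.3, 47.1 and 68.5 (-0.95 ± 0.57, limma adjusted p = 0.458), also without overlap. In this comparison groups lay apart upward for 5 members and downward for 5, beside 9.15% and 13.7% of all genes tested. Glb1, called in the adult table, had 0.05 ± 0.20, limma adjusted p = 0.936 with overlapping groups. The adult and whole-brain tables were normalised apart and were not tested against each other.

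The question of the LPS groups was how microglia with and without Dicer respond to inflammation. In whole-brain controls 1 of 36 members rose and 11 fell, where 7.05% of all genes were called higher and 7.08% lower. The median member had a log2 fold change of -0.46, beside -0.05 for all genes tested. The member that rose was Cd63, a tetraspanin of late endosomes and lysosome-related organelles. Cd63 was 266, 304 and 319 at steady state and 449.6, 961, 1454 and 1519 after LPS, where the lowest value belonged to library 33. The groups did not overlap (1.74 ± 0.37, limma adjusted p = 0.00668).

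Among the other membrane proteins Scarb2, which carries glucocerebrosidase to the lysosome, was 967, 1043 and 1095 and then 435, 497, 523 and 951 (-0.85 ± 0.22, limma adjusted p = 0.0174). Hexa, the alpha subunit of beta-hexosaminidase, which degrades GM2 ganglioside, was 3871, 4565 and 4923 at steady state and 1268, 1706, 1984 and 3863 after LPS. Its highest LPS value, from library 33, lay just under the lowest steady-state value (-1.13 ± 0.29, limma adjusted p = 0.0167). Glb1 fell by a smaller step, from 188, 201 and 237 to 119.8, 126, 127 and 144 (-0.68 ± 0.19, limma adjusted p = 0.0228).

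Of the enzymes of glycosaminoglycan breakdown, Sgsh and Naglu fell, both acting on heparan sulfate. Sgsh was 81.3, 81.6 and 162 before and 10.4, 16.9, 20.6 and 81.2 after LPS (-2.08 ± 0.54, limma adjusted p = 0.0172), with library 33 the highest of the second group. Naglu was 469, 547 and 552 before and 149, 217, 237 and 455 after (-1.10 ± 0.27, limma adjusted p = 0.0122). The other 3 members of this class were not called in controls.

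Psap fell from 2892, 3324 and 3674 to 862, 893, 1789 and 1803 (-1.39 ± 0.33, limma adjusted p = 0.0118). Of the lipid-handling members, Npc1 (-0.82 ± 0.23) and Lipa, the acid lipase of cholesteryl esters (-0.84 ± 0.23), fell with groups that overlapped in 1 or more libraries. Npc2, the soluble partner of Npc1, and Ppt1, a thioesterase of lipidated proteins, were not called (0.23 ± 0.19 and -0.33 ± 0.21). Tpp1, a tripeptidyl peptidase, fell from 1106, 1215 and 1416 to 578, 584, 708 and 1097 (-0.79 ± 0.21, limma adjusted p = 0.0174).

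The remaining falls were those of Atp6v1a, the catalytic subunit of the V-ATPase (-0.65 ± 0.20, limma adjusted p = 0.0357), and of Tfe3. Tfe3 was 603, 609.9 and 688 before and 346, 362, 402 and 439.7 after LPS, with no overlap (-0.71 ± 0.15, limma adjusted p = 0.00601). Tfeb had -1.01 ± 0.35, limma adjusted p = 0.0642 and was not called. Only Cd63 and Tfe3 held under every alternative run for this comparison, and each of the other 10 lost its call without at least 1 of LPS controls 17, 31 and 32 or steady-state controls 7, 8 and 9. Without library 33 the count was 20 members, 1 higher and 19 lower, and those gained were Lamp1, Lamp2, Cd68, Laptm5, Man2b1, Arsb, Lgmn and Tfeb. It was 3 without steady-state control 9, 4 without LPS control 31, 5 without LPS control 32, 6 without steady-state control 8, and 5 with only the 2 groups compared in the fit. The shares of all genes called in these fits are not given here, so the counts show only how far the calls depend on the libraries used.

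In Dicer-deficient whole-brain microglia 1 member rose after LPS and 17 fell, where 12.2% and 12.8% of all genes were called higher and lower. The median was -0.62 for members and -0.04 for all genes tested. By role, the falls comprised 3 of 8 membrane proteins, 4 of 8 glycosidases and ceramidase, 4 of 5 glycosaminoglycan enzymes, 2 of 3 activators, 2 of 4 lipid-handling members and both proteases. None of the 4 V-ATPase subunits tested and neither MiT factor was called.

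Cd63 was 109.9, 133 and 320.4 at steady state and 758, 1022, 1211 and 1237 after LPS, with no overlap (2.62 ± 0.37, limma adjusted p = 8.87e-05). Cd68, the macrophage sialomucin of late endosomes and lysosomes, fell from 1715, 1874 and 2915 to 752, 1098, 1141 and 1158 (-1.04 ± 0.27, limma adjusted p = 0.00799). Lamp2 and Scarb2 fell by smaller steps (-0.96 ± 0.28 and -0.81 ± 0.22).

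Of the glycosidases, Hexa (-1.01 ± 0.29), Man2b1 (-1.03 ± 0.27) and the beta-mannosidase Manba (-1.06 ± 0.25) fell, as did Asah1, the acid ceramidase (-0.96 ± 0.24). Man2b1 lost its call without steady-state library 11b (-0.68, limma adjusted p = 0.0519).

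Arsb, the sulfatase of dermatan and chondroitin sulfate, was 833, 2481 and 2944 at steady state and 185, 266, 292 and 320.5 after LPS. The highest LPS value was well under the lowest steady-state value (-2.80 ± 0.44, limma adjusted p = 0.00022). Sgsh was 45.3, 47.1 and 68.5 and then 1.7, 3, 3.7 and 6 (-3.63 ± 0.54, limma adjusted p = 0.000129), and the LPS libraries held only 2 to 11 reads of it. Naglu was 525 to 709 before and 216 to 302 after LPS (-1.24 ± 0.27), and Gusb was 1338 to 1474 before and 855 to 1068 after (-0.55 ± 0.15), and both fell. Galns, the sulfatase of keratan sulfate, was the only member of this class not called (0.43 ± 0.29).

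Psap (-1.29 ± 0.33) and Grn (-0.70 ± 0.25) fell, as did Npc1 (-0.86 ± 0.23) and Lipa, which was 409.7 to 467 before and 152 to 174 after LPS (-1.40 ± 0.23, limma adjusted p = 0.000335). Legumain (Lgmn), the asparaginyl endopeptidase, fell too, with 7481 to 10615 before and 3578 to 5134 after LPS (-1.10 ± 0.25, limma adjusted p = 0.00389). Tpp1 also fell (-0.82 ± 0.21). Of the 18 calls, 11 held under every alternative, and the Grn call was lost under 8 of them (limma adjusted p 0.0573 to 0.118). Without steady-state library 12 the count was 12, with Lamp2, Scarb2, Hexa, Psap, Grn and Npc1 lost (limma adjusted p 0.0536 to 0.110), and without library 5 it was 14, with Lamp2, Hexa, Psap and Grn lost. Hexa was also lost without LPS library 36. Of other markers, 5 of 6 erythroid markers rose in this comparison (summed 83.6 to 448 before and 2953 to 6960.5 after LPS) and 7 of 16 dissociation genes did (5067 to 10065 and 14534 to 18842). In whole-brain controls no erythroid marker and 4 dissociation genes were called higher with LPS. Their part in the falls of members was not tested.

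The control and Dicer-deficient LPS comparisons share no library. Of the members that fell, 8 did so in both genotypes (Hexa, Lipa, Naglu, Npc1, Psap, Scarb2, Sgsh and Tpp1), which is 72.7% of the control list and 47.1% of the Dicer-deficient list. The overlap was not counted over all genes, and both comparisons share the estimate of the spread of the same fit. The difference of the LPS responses was tested as an interaction, and 0 of 36 members were called by limma in either direction, beside 0.127% and 0.0447% of all genes. At an unadjusted p under 0.05 there were 4 members, and edgeR called 0. Arsb had the largest difference, -2.12 ± 0.63 (95% confidence interval -3.44 to -0.80, limma adjusted p = 0.201).

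After LPS the genotypes differed for 4 of 36 whole-brain members, 1 higher and 3 lower without Dicer, where 3.93% and 5.46% of all genes were called. The median was -0.07 for members and -0.10 for all genes tested. Arsb was 623, 794, 818 and 2181 in LPS controls and 185, 266, 292 and 320.5 in LPS Dicer-deficient libraries. The 4 Dicer-deficient values lay under all 4 controls (-1.89 ± 0.41, limma adjusted p = 0.00817), and without library 33 the change was -1.50, limma adjusted p = 0.0131. Sgsh was 10.4, 16.9, 20.6 and 81.2 against 1.7, 3, 3.7 and 6 (-2.50 ± 0.50, limma adjusted p = 0.00464), and -1.92, limma adjusted p = 0.00511 without library 33. Psap was 862, 893, 1789 and 1803 against 468, 470.2, 649 and 668 (-1.17 ± 0.31, limma adjusted p = 0.024), and the groups did not overlap.

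Atp6v1a was the member that was higher without Dicer, 144, 175, 198 and 207 in LPS controls against 268, 282, 309 and 332 (0.72 ± 0.18, limma adjusted p = 0.0189). The Psap call was lost without LPS Dicer-deficient library 36 or 37 or LPS control 17 (limma adjusted p 0.072, 0.0739 and 0.0728), and the Atp6v1a call without LPS Dicer-deficient library 36 or 37 or LPS control 31 (limma adjusted p 0.0543, 0.0629 and 0.0615). Man2b1, called at steady state, had 0.72 ± 0.25, limma adjusted p = 0.0817 and was called without library 33. Markers of monocytes and neutrophils summed to 644 to 3745 in the LPS Dicer-deficient and 137 to 3800 in the LPS control libraries, against 22.3 to 385 and 14.9 to 42.8 at steady state. Of 11 such markers tested 8 rose and 1 fell with LPS in controls and 9 rose in Dicer-deficient microglia, and only Ly6g was at 0 throughout a group after LPS, the Dicer-deficient one. Between the genotypes after LPS, 4 of these 11 markers were higher without Dicer (median log2 fold change 1.39). Of other lists 2 of 11 microglia markers (Fcrls and Cx3cr1) and 2 of 4 oligodendrocyte markers tested were lower and 2 of 6 neuron markers higher. The part of these markers in the members' changes was not tested.

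**Figure D3:**
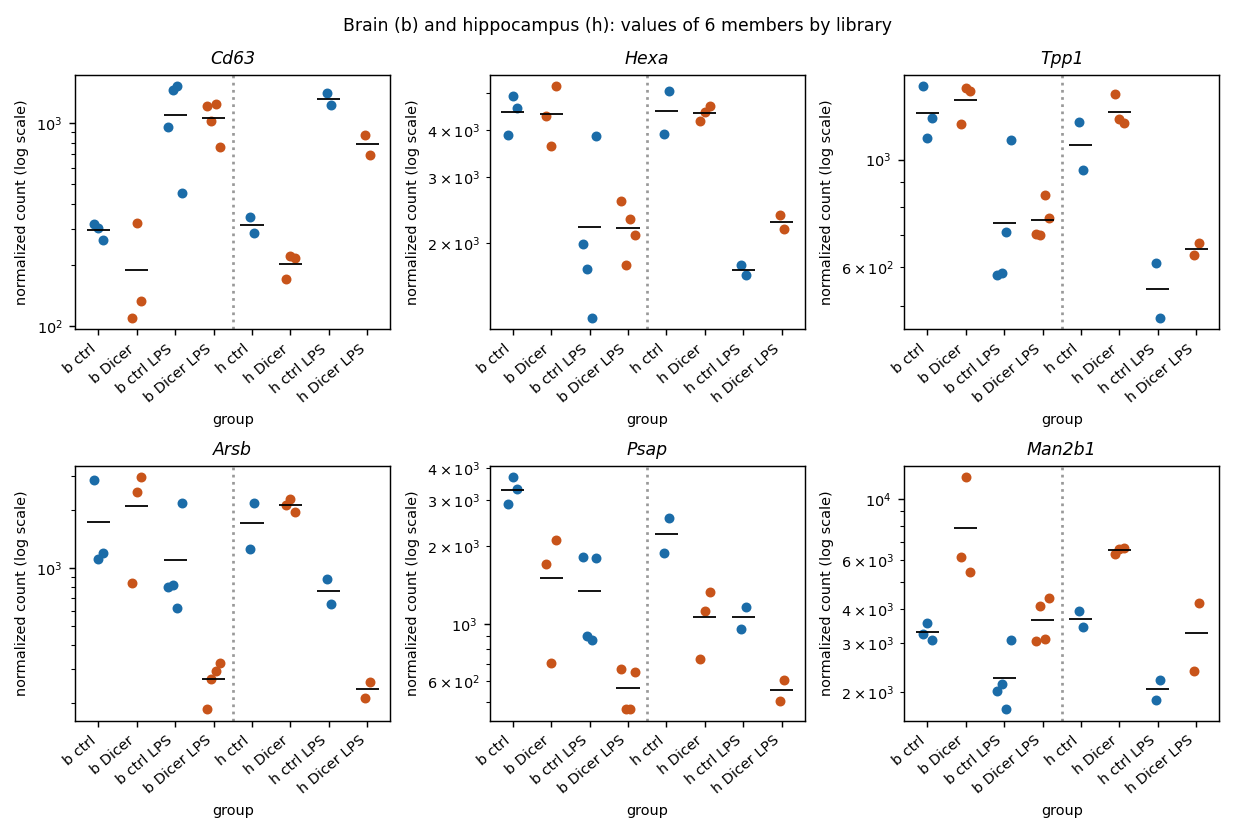
Normalised counts (y axis, log scale) of Cd63, Hexa, Tpp1, Arsb, Psap and Man2b1 in whole brain (b) and hippocampus (h), by genotype and LPS; points are libraries, bars are group means, blue is control and orange Dicer-deficient. Cd63 is higher and Hexa and Tpp1 lower after LPS in both genotypes and regions, and Arsb is lowest in the Dicer-deficient LPS libraries (185 to 320.5 in brain, 212 and 257 in hippocampus).

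In the hippocampus, loss of Dicer at steady state gave 0 of 36 members called by limma, where 0.154% and 0.0162% of all genes were called higher and lower. At an unadjusted p under 0.05 there were 8 members, and edgeR called none. The median was -0.07, beside -0.08 for all genes tested. Man2b1 was 3424 and 3909.8 in the 2 controls and 6333, 6578 and 6643 in the 3 Dicer-deficient libraries, without overlap (0.83 ± 0.24, limma adjusted p = 0.204). It was called with only the 2 groups compared in the fit. Psap was 1872 and 2555 against 732, 1125 and 1331 (-1.08 ± 0.27, limma adjusted p = 0.143), and Gusb 818 and 963 against 1218, 1311 and 1406 (0.56 ± 0.21, limma adjusted p = 0.365). Both had groups that did not overlap. Over all members tested, groups lay apart upward for 8 and downward for 10, beside 10.5% and 13.7% of all genes tested. Monocyte and neutrophil markers summed to 7653 to 7793 in these Dicer-deficient libraries against 505 and 2514 in their controls, with Retnlg at 0 throughout the first group and Ly6g and Cxcr2 throughout the second, and their part in the values was not tested.

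LPS in hippocampal controls raised 1 member and lowered 6 of 36, where 2.35% and 2.89% of all genes were called. The median was -0.66 for members and 0.00 for all genes tested. Cd63 was 286 and 346 at steady state and 1219.8 and 1411 after LPS (2.06 ± 0.27, limma adjusted p = 0.000951). Hexa went from 3911 and 5066 to 1642 and 1746 (-1.39 ± 0.21, limma adjusted p = 0.00232). Both held under every alternative.

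The other falls were those of Cd68 (-1.01 ± 0.21), Scarb2 (-1.16 ± 0.25), Arsb (-1.12 ± 0.28) and the 2 proteases Lgmn (-0.98 ± 0.20) and Tpp1 (-0.99 ± 0.24). With 2 libraries in each group, none of these 5 held under every alternative. Without steady-state control 2 the log2 fold change of Arsb was -0.73 (limma adjusted p = 0.334). The count of members called was 3 without LPS control 15 or steady-state control 1, and 2 without LPS control 16 or steady-state control 2. Steady-state control 1 had a Cx3cr1 value of 688 against 7139 in control 2. The P2ry12 values of these controls were closer, 10103 and 11810, and all microglia markers summed to 83659 and 89721. Psap went from 1872 and 2555 to 958 and 1165 and Sgsh from 65.8 and 128 to 5.71 and 25.3, without a call (limma adjusted p = 0.0642 and 0.38). Dissociation genes summed to 6761 and 10400.2 at steady state and 20334 and 23249 after LPS, and 6 of 16 rose. Of 10 border macrophage markers 2 fell. Their part in the members' values was not tested.

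In Dicer-deficient hippocampal microglia LPS raised Cd63 and lowered 11 of 36 members, beside 3.87% and 4.61% of all genes called higher and lower. The median was -0.62 against 0.05 for all genes tested. Cd63 was 171, 216 and 222 and then 697 and 872 (1.94 ± 0.24, limma adjusted p = 0.000474). Arsb fell from 1957, 2121 and 2264 to 212 and 257 (-3.17 ± 0.26, limma adjusted p = 3.44e-05), and Cd68 from 2049, 2059.5 and 2071 to 776 and 1039 (-1.20 ± 0.20, limma adjusted p = 0.00278). These 3 calls held under every alternative. Each of the other 9 was lost without at least 1 of LPS libraries 18 and 20 or steady-state libraries 4, 5 and 6.

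Mcoln1, the calcium channel of the lysosomal membrane, was 164, 249 and 318 before and 33.3 and 122 after LPS, with library 18 the lowest (-1.86 ± 0.50, limma adjusted p = 0.0374), and edgeR did not call it. The other falls were Scarb2 (-0.96 ± 0.22), Hexa (-0.96 ± 0.19), Asah1 (-0.98 ± 0.23), Man2b1 (-1.05 ± 0.24), Naglu (-1.44 ± 0.26), Lipa (-1.16 ± 0.30), Lgmn (-0.97 ± 0.18) and Tpp1 (-0.93 ± 0.21). Without LPS library 18 the log2 fold change of Mcoln1 was -0.94, with a limma adjusted p of 0.334, and that of Man2b1 was -0.64 (limma adjusted p = 0.170). Without that library the count of members called was 4, and without LPS library 20 it was 7. The monocyte and neutrophil markers went the other way here than in whole brain, from sums of 7653 to 7793 at steady state to 317 and 328 after LPS, with 1 of 11 tested called higher and 5 lower, where hippocampal controls had 39.3 and 1284 after LPS and no call. Retnlg and Mmp8 were at 0 in both LPS libraries. Of 16 dissociation genes 8 rose (summed 6977 to 7949 before and 24194 and 25551 after LPS), and of 10 border macrophage markers 5 fell, with 6 at 0 in both LPS libraries. The part of these markers in the members' falls was not tested.

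The 4 comparisons of LPS with steady state, in 2 genotypes and 2 regions, share no library. Number 5 occurs among the Dicer-deficient steady-state libraries of both regions, and the labels do not say whether it marks 1 animal. Cd63 rose in all 4 and Hexa, Scarb2 and Tpp1 fell in all 4, of 21 members that fell in at least 1. All 6 members that fell in hippocampal controls also fell in Dicer-deficient hippocampus, where they make up 54.5% of the list. Of the 11 that fell in Dicer-deficient hippocampus, 10 fell in Dicer-deficient whole brain (90.9% of the first list and 58.8% of the second). These overlaps were not counted over all genes, so they are not read as particular to the members. Both comparisons of a region come from the same fit and share its estimate of the spread. Microglia markers fell with LPS as well, 6 of 11 in whole-brain controls, 8 of 11 in Dicer-deficient whole brain, and 7 and 8 of 11 in hippocampus; their part in the members' falls was not tested.

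After LPS the hippocampal genotypes differed for 1 of 36 members, with 0.162% and 0.146% of all genes called higher and lower. The median was -0.07 for members and -0.05 for all genes tested. Arsb was 651 and 871 in controls and 212 and 257 without Dicer (-1.68 ± 0.28, limma adjusted p = 0.0242). The call was lost when any 1 of the 4 LPS libraries was left out (limma adjusted p 0.278 without Dicer-deficient 18, 0.0732 without Dicer-deficient 20, 0.168 without control 15 and 0.0742 without control 16). For the interaction 0 members were called by limma, with 0% and 0.0162% of all genes called higher and lower, 3 members at an unadjusted p under 0.05 and 0 by edgeR. Arsb had an interaction of -2.05 ± 0.38 here (limma adjusted p = 0.268), beside -2.12 in whole brain.

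**Figure D4:**
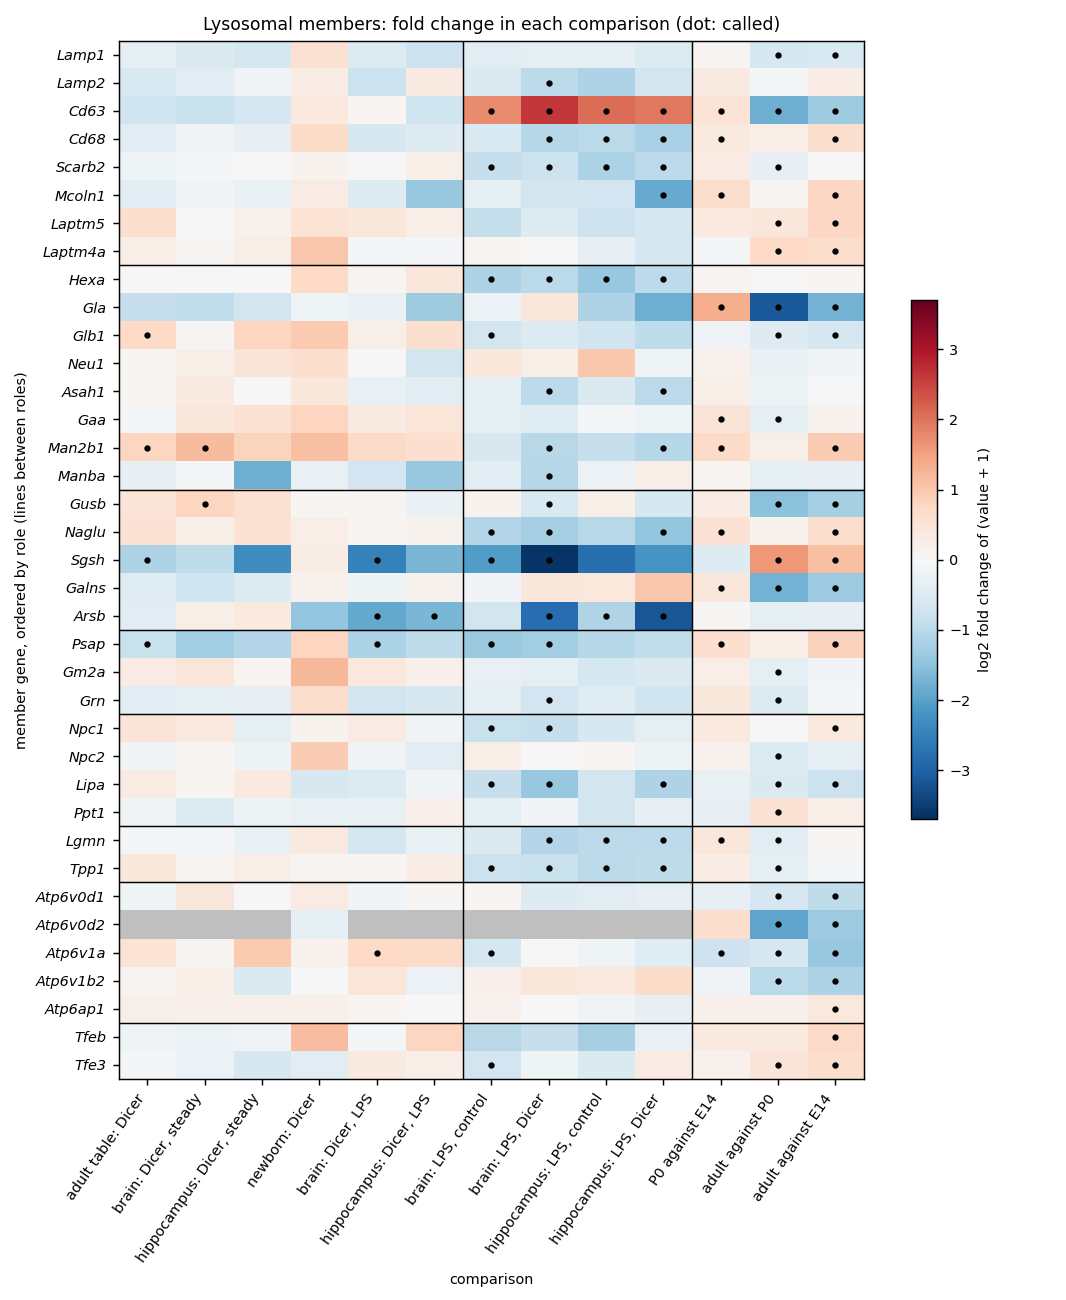
Log2 fold change of (value + 1) of each member (rows, ordered by role) in 13 comparisons (columns), with red higher and blue lower; dots mark members called at an adjusted p under 0.05 and grey means not tested. Cd63 is the only member called higher in the 4 columns of LPS against steady state.

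Control microglia of 3 ages answer how the set changes as microglia mature. From E14 to P0, 10 of 37 members rose and 1 fell, whereas 11% of all genes were called higher and 18.3% lower. The median was 0.26 for members and -0.11 for all genes tested. E14 cells were sorted with another gate than P0 cells, so stage and gate cannot be told apart in comparisons with E14.

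Gla, the alpha-galactosidase of globotriaosylceramide, was 44.8, 49.9, 63.3 and 70.2 at E14 and 74.1, 117, 138, 206 and 251 at P0. All P0 values exceeded all E14 values, with a wide spread at P0 (1.34 ± 0.27, limma adjusted p = 0.00105). Mcoln1 was 97.3, 97.9, 101 and 107 and then 131, 139, 175, 177 and 188 (0.66 ± 0.13, limma adjusted p = 0.00113), and Man2b1 1296, 1348, 1391 and 1420.02 and then 1918, 1962, 2040.1, 2501 and 2921 (0.71 ± 0.14, limma adjusted p = 0.00108). Gaa, the glucosidase of glycogen, rose as well (0.49 ± 0.14, limma adjusted p = 0.0119). The only fall was that of Atp6v1a, from 338, 363, 421 and 450.4 to 172, 222, 244, 259 and 268 (-0.76 ± 0.16, limma adjusted p = 0.00139). These 5 calls held under every alternative.

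The other 6 rises were Cd63 (0.51 ± 0.18), Cd68 (0.35 ± 0.13), Naglu (0.52 ± 0.16), Galns (0.41 ± 0.14), Psap (0.62 ± 0.22) and Lgmn (0.43 ± 0.16). Each lost its call when 1 or more single libraries were left out, and the count was 7 without E14 library 3 or 4 or P0 library 1 or 3. With edgeR and TMM scaling, which moved the median of all genes by 0.11, 16 members were higher and 1 lower. The shares of all genes called under that scaling are not given here, so this count cannot be set beside those of limma. Erythroid markers summed to 485 to 836 at E14 and 11507 to 47775 at P0, with all 6 detected, and dissociation genes to 808 to 1770 and 7953 to 33790. Of 10 border macrophage markers 4 rose and 1 fell, and 5 of 6 neuron markers fell. Their part in the stage differences was not tested.

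From P0 to adult most of the calls were falls, with 5 members higher and 18 lower of 37. Of all genes 22.3% were called higher and 26.8% lower. Of the members that rose from E14 to P0, Cd63, Gla, Gaa, Galns and Lgmn now fell. Cd68, Man2b1, Mcoln1, Naglu and Psap were not called, and Atp6v1a fell in both steps. Both comparisons use the P0 libraries with opposite sign, so opposite changes in them are not independent. The median was -0.34 for members and -0.08 for all genes tested. Gla was 12.3, 14.7, 15.1, 19.3 and 19.4 in the 5 adults against 74.1 to 251 at P0 (-3.10 ± 0.25, limma adjusted p = 4.03e-09). Galns was 46.5, 51.7, 52.6, 55.4 and 68.1 in adults and 159 to 219.5 at P0 (-1.76 ± 0.13, limma adjusted p = 6.63e-10). Gusb was 741, 808, 811, 814 and 854 in adults and 2145 to 2460.3 at P0 (-1.51 ± 0.12, limma adjusted p = 1.57e-09).

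These 3 enzymes had no overlap between the stages. Cd63 fell as well, with 831 to 1312 at P0 and 251 to 452 in adults (-1.82 ± 0.17, limma adjusted p = 1.67e-08), with adult library 2 the highest of its group. Among the other membrane proteins Lamp1 (-0.63 ± 0.16) and Scarb2 (-0.31 ± 0.11) fell, and Laptm4a (0.74 ± 0.14) and Laptm5 (0.41 ± 0.15) rose. Laptm4a and Laptm5 encode related multi-pass membrane proteins of late endosomes and lysosomes.

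Of the 5 V-ATPase members 4 fell. Atp6v1b2, the brain isoform of the B subunit, was 234, 239, 243, 251 and 266 at P0 and 115, 121, 125, 125 and 126 in adults (-1.01 ± 0.10, limma adjusted p = 5.29e-08). The d subunit Atp6v0d1 (-0.63 ± 0.13) and Atp6v1a (-0.63 ± 0.15) fell too, whereas the accessory subunit Atp6ap1 did not pass (0.19 ± 0.11). Atp6v0d2 was called lower, with 28 reads over the 5 P0 libraries and 0 over the 5 adults. With the P0 count taken as exact and a floor of 3 reads over the adult group, that is at least 8.66-fold lower. The median of the members is the same with that gene at its bound.

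Sgsh was the member with the largest rise, 17.4, 18.7, 27.7, 28.1 and 29.1 at P0 and 67.5, 73.1, 73.7, 75.6 and 78.5 in adults (1.60 ± 0.18, limma adjusted p = 3.36e-07). No adult value overlapped a P0 value. Ppt1 (0.52 ± 0.12) and Tfe3 (0.48 ± 0.12) also rose. The remaining falls were smaller: Glb1 (-0.47 ± 0.18), Gaa (-0.36 ± 0.13), Gm2a, the GM2 activator (-0.34 ± 0.13), Grn (-0.50 ± 0.15), Npc2 (-0.50 ± 0.14), Lipa (-0.54 ± 0.10), Lgmn (-0.40 ± 0.15) and Tpp1 (-0.35 ± 0.13). Of the 23 calls 15 held under every alternative. Scarb2, Laptm5, Glb1, Gaa, Gm2a, Lgmn and Tpp1 lost theirs without 1 or more single libraries (limma adjusted p at most 0.125, with Gm2a at -0.22 without P0 library 1), and Atp6v0d2 did not enter the fit of the 2 groups alone. Adults 2, 4 and 5 had Cx3cr1 values of 490 to 1188 against 7454 and 8687 in adults 1 and 3. P2ry12 did not divide them in this way, with 6721 to 7251 against 5769 and 8550. All microglia markers summed to 55485 to 62559 against 68220 and 65889. Adult libraries 1 and 2 differed from adults 3 to 5 in Psap (1421 in both against 2857 to 3219), which was not called (0.24 ± 0.20).

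Markers of several cell types moved with the step from P0 to adult. Erythroid markers summed to 11507 to 47775 at P0 and 41.3 to 1790.4 in adults, and all 5 tested fell. Border macrophage markers summed to 1759 to 2224 and 550.3 to 795, and 7 of 10 fell. Microglia markers summed to 29958 to 40500.4 and 55485 to 68220, and 7 of 11 rose. Of 6 neuron markers 4 fell, and 3 of 4 oligodendrocyte markers tested rose. Dissociation genes went both ways, 4 higher and 6 lower. The part of these markers in the members' stage differences was not tested.

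Adult against E14 shares its adult libraries with the comparison above, and its values are given side by side. Here 12 members were higher and 11 lower of 37, beside 23% and 33.3% of all genes, with a median of 0.01 against -0.13 over all genes tested. The log2 fold change of Gla was -1.76 ± 0.27, of Galns -1.36 ± 0.14, of Gusb -1.22 ± 0.12 and of Cd63 -1.31 ± 0.18. Those of the V-ATPase members were -1.39 ± 0.16 for Atp6v1a, -1.13 ± 0.10 for Atp6v1b2 and -0.93 ± 0.14 for Atp6v0d1, all called lower. Atp6v0d2 had 13 reads at E14 and, with that count taken as exact, was at least 3.99-fold lower in adults against the same floor. Lamp1 (-0.55 ± 0.17), Glb1 (-0.61 ± 0.19) and Lipa (-0.81 ± 0.10) made up the rest of the falls.

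Members higher in adults than at E14 were Sgsh (1.11 ± 0.19), Man2b1 (0.94 ± 0.14), Psap (0.87 ± 0.22), Laptm5 (0.77 ± 0.17), Mcoln1 (0.75 ± 0.13), Naglu (0.66 ± 0.16), Laptm4a (0.65 ± 0.15), Cd68 (0.61 ± 0.13), Atp6ap1 (0.38 ± 0.11) and Npc1 (0.35 ± 0.14). Both MiT factors were higher as well, Tfeb at 57.5, 64.5, 70.8 and 91.1 in E14 and 86.8, 98.3, 112, 135 and 149 in adults (0.70 ± 0.19, limma adjusted p = 0.00433) and Tfe3 at 235, 258, 269.9 and 275 and 341, 368, 405, 410.4 and 516 (0.64 ± 0.12, limma adjusted p = 0.000188). The Tfe3 groups did not overlap, and the Tfeb groups did. Of the 23 calls 20 held under every alternative, and the exceptions were Npc1, Atp6v0d2 and Glb1. Glb1 was lost without E14 library 1 (limma adjusted p = 0.0556), Npc1 without E14 libraries 1, 3 or 4 or adults 4 or 5 (at most 0.13), and Atp6v0d2 without any 1 adult or E14 libraries 1, 2 or 4 (at most 0.129).

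Between E14 and adults, 8 of 11 microglia markers were higher and 1 lower, 7 of 10 border macrophage markers lower and 1 higher, 5 of 6 neuron markers lower and 12 of 16 dissociation genes higher. Their part in the members' differences was not tested.

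**Figure D5:**
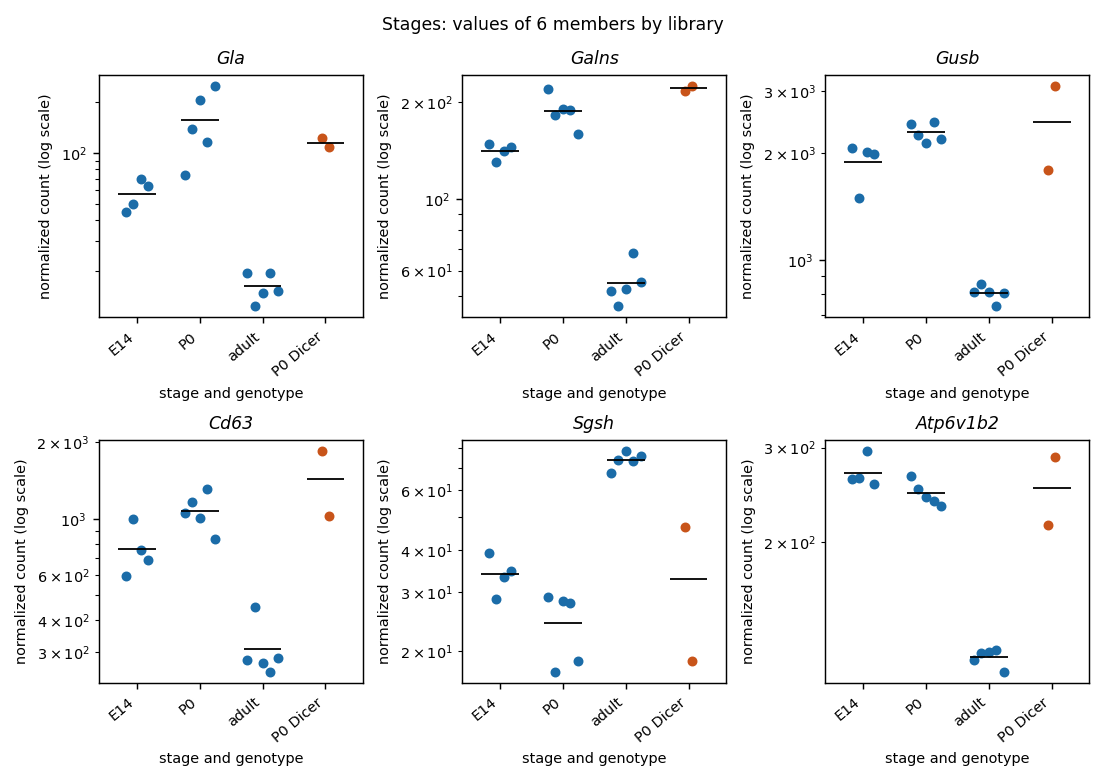
Normalised counts (y axis, log scale) of Gla, Galns, Gusb, Cd63, Sgsh and Atp6v1b2 in 4 E14, 5 P0 and 5 adult control libraries (blue) and 2 P0 Dicer-deficient libraries (orange); bars are group means. Gla, Galns, Gusb, Cd63 and Atp6v1b2 are lowest and Sgsh highest in the adults among the control stages.

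Newborn Dicer-deficient microglia were compared with the 3 P0 controls that the labels assign to the same figure. These controls are labelled without Cre, so loss of Dicer and presence of Cre cannot be told apart here. By limma 0 of 37 members were called, 9 had an unadjusted p under 0.05 and edgeR called 1, beside 1.04% and 0.444% of all genes called higher and lower. The median was 0.30 for members and -0.06 for all genes tested. Arsb, the member edgeR called, was 554 and 927 in the 2 Dicer-deficient libraries and 1862 to 1961 in the 3 controls (-1.43 ± 0.32, limma adjusted p = 0.0615). Gm2a was 1864 and 1192 against 564 to 840.3 (1.20 ± 0.32, limma adjusted p = 0.0976), and Man2b1 5282 and 4127 against 1918 to 2501 (1.13 ± 0.35, limma adjusted p = 0.133). Glb1 was 471 and 310.2 against 177 to 222 (0.96 ± 0.28, limma adjusted p = 0.116), and Laptm4a 1516 and 1207 against 538 to 738 (1.03 ± 0.29, limma adjusted p = 0.106). In none of these 5 members did the groups overlap. Over all 37 members, groups lay apart upward for 14 and downward for 3, beside 17.3% and 20.6% of all genes tested.

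The 2 Dicer-deficient newborn libraries differed from each other. Psap was 5521 and 2047 in libraries 1 and 2, Hexa 6389.7 and 2611 and Cd68 3832 and 1607, of which library 2 lay within or just above the range of the 5 P0 controls. Library 1 had 992317 reads, the fewest of its table, and a Cx3cr1 value of 647 against 3129 in library 2. Its normalised values also summed to 2579576, where library 2 had 1896251 and the P0 controls 1756661 to 1876963; the part of these differences in the members' values was not tested. With library 1 alone as the Dicer-deficient group more members were called than with library 2 alone. The shares of all genes called in these fits are not given here, so this difference is not read as a result about the members. A lone library was assumed to vary like the controls. With all 5 P0 controls, Arsb was called lower and Gm2a, Man2b1, Glb1 and Laptm4a higher.

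Neu1, the sialidase that removes terminal sialic acids, was the only member never called; its log2 fold changes ran from -1.15 to 1.00 over the 15 comparisons. Manba, Lamp2, Npc2, Ppt1, Gm2a, Atp6ap1 and Tfeb were each called in 1 comparison. Gla was low in the tables of the 10 to 12 week adults, at 7.77 to 46.2 in the adult table from 3 to 11 reads a library.

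Other lysosomal genes were counted from 5 lists of the same pathway. With loss of Dicer, 4 of 30 other hydrolases and cofactors rose and 3 fell in the adult table, and 1 rose in whole brain, beside 3.15% and 2% of all genes in the first and 0.797% higher in the second. Ifi30, a thiol reductase of antigen processing in lysosomes, rose in each Dicer comparison, by 2.39 ± 0.16 in the adult table, 2.49 ± 0.30 in whole brain, 2.37 ± 0.26 in hippocampus and 2.23 ± 0.37 in newborns, and by 1.92 and 1.71 in brain and hippocampus after LPS. Ctsl, a cysteine protease, rose in the adult, whole-brain and hippocampal steady-state comparisons (1.23 ± 0.18, 1.35 ± 0.29 and 1.23 ± 0.20). The sum of the cathepsin list went the other way in all of these. It was 114731 to 131188 without Dicer against 146270 to 176300 in the adult table. In whole brain it was 49541 to 66481 against 70493.5 to 80372, and in hippocampus 64495 to 68666 against 80729 to 91941. Atp6v0a1, a membrane subunit of the V-ATPase, rose without Dicer in the untreated adult table (0.78 ± 0.17) and after LPS in whole brain (2.32 ± 0.22) and hippocampus (2.05 ± 0.22).

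LPS in whole-brain controls raised 1 and lowered 8 of 30 other hydrolases, and in Dicer-deficient whole brain it raised 3 and lowered 9. Of all genes 7.05% and 7.08% were called higher and lower in the first comparison and 12.2% and 12.8% in the second. Naaa, an acid amidase of N-acylethanolamines, rose in all 4 LPS comparisons (1.32 and 1.23 in brain, 2.35 and 1.78 in hippocampus). Of the 10 cathepsins, 1 rose and 1 fell in whole-brain controls, Ctsc (1.10 ± 0.26) and Ctsf (-0.83 ± 0.23). Of 30 other membrane and sorting proteins tested 2 rose and 5 fell, including the channel Tpcn1 (-2.54 ± 0.53). In the list of MiT factors and mTORC1 regulators, Flcn, which controls Tfeb and Tfe3 at the lysosome, was the only gene called in these controls (-0.81 ± 0.24). Of the 15 other V-ATPase subunits tested, 1 rose and 1 fell in the same comparison.

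Across stages the lists went both ways. From P0 to adult 13 of 30 other hydrolases rose and 7 fell, beside 22.3% and 26.8% of all genes, among the first Arsg, a heparan sulfate sulfatase (2.16 ± 0.19), and Pla2g15 (1.62 ± 0.14). Of 15 other V-ATPase subunits tested 3 rose and 7 fell. The channel gene Mcoln2 fell by 5.34 on the log2 scale, and Tfec, another MiT factor, fell by 3.36. From E14 to P0, 11 of 30 other membrane and sorting proteins tested rose and 1 fell, and 7 and 2 of the other hydrolases did, where 11% and 18.3% of all genes were called.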

How the data were processed

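The authors sequenced libraries made with oligo-dT beads from sorted mouse microglia, and per the submitters' processing notes used bcl2fastq, HISAT 0.1.5, SAMtools, HOMER and DESeq2 with the mm9 genome. Filters and pooling are not given in the sources used here. The deposited values are a signal, gene counts divided by a size factor per library. Whole reads were recovered from the steps between low values (at least 99.2% of values above 0 within 0.1 read of a whole number), which gave the depth of each of the 46 libraries (898451 to 4573063 reads). The precision of a low gene is set by these counts.

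Symbols were matched exactly. Values were compared with limma 3.58.1 (R 4.3.3, variance trend) on log2(value + 1), which understates changes of low genes. A gene was tested where it reached 1 in at least as many libraries of the fit as the smallest group compared, and p-values were adjusted by Benjamini-Hochberg over all genes tested. The adult, whole-brain and hippocampal tables had 1 fit each with a mean per group, the stages 1 fit of the 14 controls, and the newborns a fit of 5 libraries. Alternatives were pseudocounts of 0.1 and 5, no filter, edgeR 4.0.16 on recovered reads with TMM or RLE scaling, a replicate block, fits restricted to the groups in question, all 5 P0 controls, and each library left out. The test was run on simulated counts for some of the comparisons, drawn with the same dispersion for every gene and no deviating library. That simulation does not cover deviating libraries such as those named above. Promoter windows were matched by symbol, since RefSeq's GRCm38.p6 is not the build of the files.

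The members and lists were chosen with earlier results of these data known. All members were named with their role, and of each other list up to 3 called genes per comparison with the smallest p could be named. The series text gives 3 Dicer-deficient whole-brain libraries after LPS where the labels give 4, and the labels were followed.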

Additional observations from a re-analysis of the deposited data

Results flagged for a closer look

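A library far from the others of its group, by Dixon's 95% criterion, was found in 26 of 218 pairs of a member and a group of 4 or 5 libraries, where chance flags about 1 in 20. In the adult controls these were library 2 for Atp6v1a (339, the others 515 to 549.5), Galns (255) and Hexa (6675), library 3 for Mcoln1 (408), and library 4 for Glb1 (277) and Lamp1 (4997). Whole-brain LPS control 33 was the highest of its group for Arsb (2181, the others 623 to 818), Grn (9297), Lamp2 (481), Mcoln1 (279) and Sgsh (81.2). Among the whole-brain Dicer-deficient libraries after LPS, Cd68 was lowest in library 35 (752) and Manba highest in library 38 (54.1).

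At E14, library 2 was lowest for Asah1 (667) and Gusb (1494) and library 3 highest for Atp6v1b2 (296). At P0, library 4 was highest for Arsb (2448) and Lamp2 (499) and lowest for Cd68 (1229), library 1 was highest for Gm2a (840.3) and lowest for Laptm4a (538), and library 5 was lowest for Atp6ap1 (663). Adult library 2 of the developmental table was highest for Cd63 (452), Laptm4a (1682), Lgmn (7718) and Tpp1 (1252).

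In 5 cases the groups were fully separated in opposite directions in 2 tables, and these differences were not tested. Of all genes tested for loss of Dicer, 17.3% lay apart upward and 20.6% downward in newborns. The shares were 9.79% and 6.68% in the adult table and 10.5% and 13.7% in hippocampus at steady state. For LPS without Dicer they were 15.95% and 16.4% in whole brain and 18.3% and 17.1% in hippocampus. Lamp2 was lower without Dicer in adults (log2 fold change -0.57) and higher in newborns (0.28). Grn was lower in adults (-0.40) and in hippocampus (-0.30) and higher in newborns (0.65). Cd68 was lower in hippocampus (-0.30) and higher in newborns (0.68). Tfe3 was lower after LPS in Dicer-deficient whole brain (-0.17) and higher in Dicer-deficient hippocampus (0.31). None of these values passed the limma threshold, and newborn library 1, whose normalised values sum higher than those of the others, enters each newborn value. The newborn controls are labelled without Cre, whereas the controls of the adult and hippocampal tables carried CreER.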

How the results depend on the processing

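Of 117 calls of a member in a comparison, 62 held under every alternative and none changed sign. Leaving out 1 library at a time gave 2 to 5 members called in the adult table (4 with all libraries), 0 to 3 for loss of Dicer in whole brain (2), 2 to 5 for the same after LPS (4), 3 to 20 for LPS in whole-brain controls (12) and 12 to 21 in Dicer-deficient whole brain (18). For P0 against E14 it gave 7 to 10 (11). In the hippocampal comparisons with a call, leaving out 1 library gave fewer members than with all libraries. Several of those fits, and those without a Dicer-deficient newborn library, leave a lone library in a group, and their counts are not given here. With only the groups compared, the counts were 5 for LPS in whole-brain controls, 1 for loss of Dicer in hippocampus and 0 for the same after LPS, and 3 for LPS in hippocampal controls. A pseudocount of 0.1 and no filter each left 1 for loss of Dicer in whole brain. With edgeR, P0 against E14 had 17 (TMM) and newborns 1 (TMM and RLE), and newborns had 5 with all 5 P0 controls. TMM moved the median of all genes by 0.11 for P0 against E14 and by 0.12 for adult against E14. The causes were not tested. The shares of all genes called in these alternatives are not given here, so the counts show only how the calls depend on the setting. For the interactions a fit of only the groups compared is the same fit and was not run.

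Libraries of different groups share replicate numbers in the adult and developmental tables. Same-numbered libraries deviated from their group means with correlations of -0.022 to 0.018 and -0.17 to 0.198. Differently numbered ones had -0.068 to 0.064 and -0.218 to 0.227. The 2 same-numbered newborn pairs had 0.122 and 0.126, and the other newborn pairs -0.126 to 0.036. Each of the 2 Dicer-deficient newborn libraries deviates as the mirror of the other, so these values cannot decide whether the numbers mark pairs. With the replicate block, 2 members were called in the adult table, 10 for P0 against E14, 20 for adult against P0, 21 for adult against E14 and 0 in newborns.

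Depth limits the low members: Sgsh had 2 to 11 reads a library in Dicer-deficient whole brain after LPS, and Gla 3 to 11 in the adult table. Groups of 2 libraries limit the hippocampal and newborn comparisons, and a lone library is assumed there to vary like the other groups.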
